A study of Mus musculus with 6 samples.

Results

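Basophils and mast cells were sought among the CD45+ cells of metastatic mouse liver, and 255 of 23008 cells were chosen. A cell was chosen when the mean of its deposited scaled values (each gene's level set to a mean near 0 and a spread near 1 within a site) was above 2 over Mcpt8, Cpa3, Ms4a2 and Gata2 and below 1.5 over Elane and Mpo. The adjacent tissue held 3 of the 4 selection genes, lacking Ms4a2, micrometastasis held all 4, and macrometastasis held only Mcpt8 and Gata2. Balb/c mice had received 4TO7 breast tumor cells (the 4T07 line of the study) into the heart, either control cells (Ctrl) or cells in which Tim3 was knocked down by a short hairpin RNA (Tim3-KD), so the knockdown lay in the tumor cells and not in the immune cells of the host. Tumor-free adjacent liver and micrometastasis were taken on day 3 and macrometastasis on day 12. Immune cells were sorted for CD45 and sequenced by a 3′ droplet assay that counts unique molecular identifiers (UMIs, 1 for each captured RNA molecule). Each of the 6 groups was 1 library pooled from 2 mice, so no difference between groups of a site has a replicate check and none was tested. The intervals below are 95% intervals that cover counting error only, not the spread between mice. Those of CPM and of ratios of CPM treat every UMI as independent, so they also leave out the spread between cells.

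Basophils are rare granulocytes that leave the bone marrow mature and short-lived, while mast cells finish their development in tissue and persist there. Both carry the high-affinity receptor for IgE (Fcer1a and Ms4a2 encode its alpha and beta chains), both store histamine made by histidine decarboxylase (Hdc) with proteases such as carboxypeptidase A3 (Cpa3), and both depend on the transcription factor GATA2. Mouse basophils are told apart by the proteases Mcpt8 and Prss34, and mast cells by the receptor Kit and by chymases and tryptases such as Cma1, Mcpt4 and Tpsb2.

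The bases before the starts of 3 receptor and protease genes that the members carried are shown because Gata2, which encodes a factor that binds GATA letters, was used with 2 of them to choose the cells. Ms4a2 lies on chromosome 19 from 11615523 to 11623719, Cpa3 on chromosome 3 from 20215620 to 20242181 and Fcer1a on chromosome 1 from 173221284 to 173227214, all on the minus strand of GRCm38. Each line is the 250 bases upstream of the RefSeq start on GRCm38.p6, at chr19:11623720-11623969, chr3:20242182-20242431 and chr1:173227230-173227479 (minus strand, 5′ to 3′). Capitals mark the GATA motif on either strand, searched as AGATAA, as its variant AGATAG, and also as TGATAA, with its own variant TGATAG.
Ms4a2: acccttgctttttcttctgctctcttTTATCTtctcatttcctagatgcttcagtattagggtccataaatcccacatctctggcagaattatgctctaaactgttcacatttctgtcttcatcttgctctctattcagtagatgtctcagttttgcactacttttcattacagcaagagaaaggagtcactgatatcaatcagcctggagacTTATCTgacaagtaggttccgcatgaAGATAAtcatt
Cpa3: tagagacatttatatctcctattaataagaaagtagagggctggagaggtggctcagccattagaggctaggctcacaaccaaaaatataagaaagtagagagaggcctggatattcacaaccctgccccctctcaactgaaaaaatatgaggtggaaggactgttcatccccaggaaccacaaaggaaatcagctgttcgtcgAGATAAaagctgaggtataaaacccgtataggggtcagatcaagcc
Fcer1a: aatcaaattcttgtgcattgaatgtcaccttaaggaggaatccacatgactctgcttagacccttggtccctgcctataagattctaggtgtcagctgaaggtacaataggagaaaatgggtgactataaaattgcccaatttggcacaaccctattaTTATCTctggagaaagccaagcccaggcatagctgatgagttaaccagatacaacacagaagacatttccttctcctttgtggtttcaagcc
Ms4a2 held 3 matches, Cpa3 1 and Fcer1a 1 in these windows. They are shown as examples that hold the motif, since the same search found no match before Mcpt8, Ccl3 or either start of Gata2, and 1 match each before Hdc, Il6, Prss34 and only 1 of the 2 starts of Cyp11a1. At least 1 match was found in 26.5% of 32851 RefSeq promoter windows of the same length, and 3 or more in 1.35%. A match is a description of the letters and not a binding site.

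Not every chosen cell carried basophil or mast cell genes. By the genes they carried, the members fell into 3 kinds that were set after their values were seen. A first kind of 130 cells had a UMI of at least 2 of Mcpt8, Prss34, Cyp11a1 and Gata2, and is called the basophil-gene members. A second kind of 87 cells had at least 10 UMIs over Clec4g, Stab2, Ptprb, Kdr and Bmp2, genes of the endothelium, and is called the endothelial-gene members. The remaining 38 cells had neither. No member had an endothelial sum between 2 and 10, so the second kind stood apart from the others. In a clustering of all cells into 27 clusters, 120 of the 130 basophil-gene members fell in a cluster of 143 cells led by Mcpt8 and Prss34, while all 87 endothelial-gene members fell in a cluster of 632 cells led by Ptprb and Clec4g. Of the remaining 38 members, 21 fell in a cluster of 574 cells whose leading genes included Cd34, a surface protein of progenitors, and 10 had a Mcpt8 UMI.

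**Figure D1:**
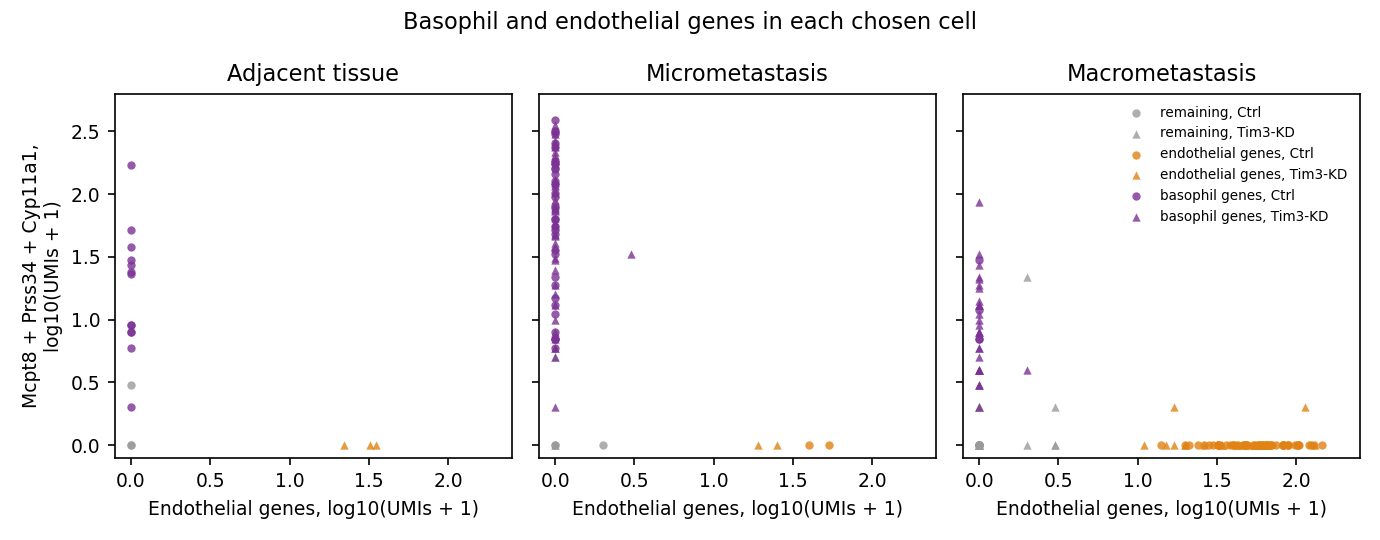
Each point is 1 chosen cell, by site, with the summed UMIs of Clec4g, Stab2, Ptprb, Kdr and Bmp2 on the horizontal axis and of Mcpt8, Prss34 and Cyp11a1 on the vertical axis, both as log10(UMIs + 1); colors are the 3 kinds of member, circles Ctrl and triangles Tim3-KD. The 87 endothelial-gene members lie along the bottom right, mostly in macrometastasis, and the 130 basophil-gene members along the left edge.

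The endothelial-gene members had entered through Gata2, which endothelium also uses. All 87 had a Gata2 UMI. In macrometastasis Ctrl the 59 such cells carried from 1 to 3 Gata2 UMIs with a median of 1, none had a UMI of Mcpt8 or Cyp11a1, and their endothelial genes summed to between 13 and 145 UMIs with a median of 58. In the 21 cells of macrometastasis Tim3-KD the median was 42 endothelial UMIs, and 1 cell had a Mcpt8 UMI. The 3 members of adjacent tissue Tim3-KD were all of this kind, with endothelial sums of 21, 31 and 34 UMIs. They went against the label and are not called basophils or mast cells here.

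Beside the thresholds, the members just inside scored 2.06 (adjacent tissue), 2.10 (micrometastasis) and 2.00 (macrometastasis), and the cells just outside scored 1.82, 2.00 and 1.999. The exclusion on Elane and Mpo, genes of neutrophil granule precursors, removed 30 cells in all, of which 24 carried basophil genes. It removed 16 cells in macrometastasis Tim3-KD, 11 of them with basophil genes, against between 0 and 5 cells in every other library. Those 16 cells had a median of 36 Mpo UMIs and 16.5 Mcpt8 UMIs.

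Among all cells, the share of basophil-gene members was 0.721% in adjacent tissue Ctrl (13 of 1803 cells, interval 0.384 to 1.23%). In adjacent tissue Tim3-KD it was 0 of 542 cells, which allows a share of up to 0.554% by a floor of 3 counts and 0.678% by the exact upper limit. It was 0.686% in micrometastasis Ctrl (35 of 5106, 0.478 to 0.952%) and 0.953% in micrometastasis Tim3-KD (49 of 5142, 0.706 to 1.26%). The lowest share with any such cell was in macrometastasis Ctrl, 0.0814% (4 of 4913, 0.0222 to 0.208%), and macrometastasis Tim3-KD had 0.527% (29 of 5502, 0.353 to 0.756%). The share intervals are exact Clopper-Pearson intervals.

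**Figure D2:**
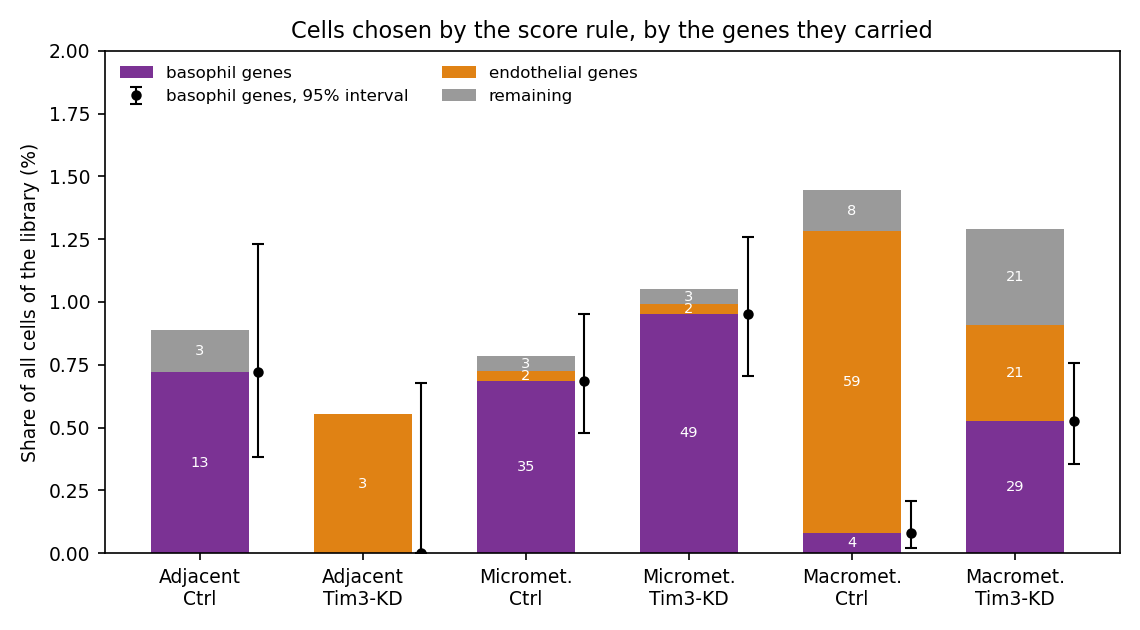
Bars give the share of all cells of each library, in percent, taken by the 3 kinds of chosen cell, with cell numbers in white; points with error bars repeat the basophil-gene share with its exact 95% interval for counting error. The basophil-gene share is 0.0814% in macrometastasis Ctrl and 0.527% in macrometastasis Tim3-KD, although both libraries hold 71 chosen cells.

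In macrometastasis the share of basophil-gene members was higher with Tim3-KD tumors by 0.446 percentage points (Newcombe interval 0.241 to 0.680), a ratio of 6.47 (2.27 to 25.3). Among all members both libraries held 71, a difference of -0.155 points (-0.613 to 0.293). The endothelial-gene members moved the other way, with 1.20% in Ctrl and 0.382% in Tim3-KD. The whole Ptprb-led cluster did as well, with 346 of 4913 cells in Ctrl and 133 of 5502 in Tim3-KD. The cluster led by Mcpt8 held 6 cells in macrometastasis Ctrl and 34 in Tim3-KD, a difference of 0.496 points (0.269 to 0.749). That clustering used Mcpt8 and Gata2 among its genes, and 120 of the cluster's 143 cells were basophil-gene members, so it is not a separate check. Leaving out cells with a doublet score over 0.15 brought the difference in basophil-gene members down to 0.202 points (0.0457 to 0.389).

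In micrometastasis the difference between Tim3-KD and Ctrl was 0.267 points for the basophil-gene members (-0.0853 to 0.628), an interval that held 0. Among cells outside the neutrophil clusters the difference was 1.22 points (0.501 to 2.03), and without doublet scores over 0.15 it was 0.503 points (0.208 to 0.825). The part that the neutrophil share of each library plays was not tested. In the Ctrl libraries the basophil-gene share of micrometastasis minus that of adjacent tissue was -0.0355 points (-0.579 to 0.365). For the Mcpt8-led cluster that difference was -0.277 points (-0.870 to 0.164), and both intervals held 0. The Ctrl share of basophil-gene members was lower in macrometastasis than in micrometastasis, with a difference of -0.604 points (-0.875 to -0.373). Without doublet scores over 0.15 it was -0.250 points (-0.451 to -0.0838). All members, with the 59 endothelial-gene members counted in macrometastasis, gave the opposite direction, 0.662 points (0.252 to 1.09). Between the Tim3-KD libraries the share was also lower in macrometastasis, with a difference of -0.426 points (-0.770 to -0.10). Adjacent tissue and micrometastasis were both taken on day 3 and differ by site and library, which cannot be told apart, while macrometastasis also differs from micrometastasis by day.

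The basophil-gene members were set by Mcpt8, Prss34, Cyp11a1 and Gata2, so the detection of these genes in them is a description of the choice. Mcpt8, the basophil protease, had a UMI in 12 of 13 cells of adjacent tissue Ctrl, 34 of 35 of micrometastasis Ctrl, 45 of 49 of micrometastasis Tim3-KD, 4 of 4 of macrometastasis Ctrl and 28 of 29 of macrometastasis Tim3-KD. Cyp11a1, the enzyme that starts steroid synthesis from cholesterol, was seen in 12 of 13, 35 of 35, 48 of 49, 4 of 4 and 25 of 29 cells in the same order, and in at most 0.616% of the non-members of any of these 5 libraries. Prss34, the other basophil protease, was seen in fewer members, 3 of 13, 20 of 35, 34 of 49, 1 of 4 and 6 of 29. Fcer1a, which the choice did not use, was held for micrometastasis only, with 31 of 35 and 42 of 49 cells, against 0.0987% and 0.0983% of the non-members. Ms4a2, the beta chain of the same receptor, was seen there in 33 of 35 and 40 of 49 cells. Many values of Mcpt8, Prss34, Cpa3, Ms4a2, Fcer1a, Gata2, Cyp11a1 and Il6 were at the cap of 10 scaled units, which cuts high counts off at a different number of UMIs in each site, so their levels are lower bounds and are not set side by side across sites.

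Hdc and Cd63 were high without such a limit, while other granule genes were not uniformly so. Hdc was at 2416 CPM (UMIs of the gene scaled to the same total in every group, interval 2163 to 2692) in adjacent tissue Ctrl, 1992 in micrometastasis Ctrl, 1654 in micrometastasis Tim3-KD, 1863 in macrometastasis Ctrl and 1722 in macrometastasis Tim3-KD. In the non-members of those libraries Hdc lay between 280.8 and 409.6 CPM, so it was several times higher in the basophil-gene members of all 5. Cd63, a granule membrane protein that reaches the surface on degranulation, was at 923 to 1739 CPM in the members and 171.0 to 304.1 in the non-members. Lamp1, a membrane protein of lysosomes, was lower in the members, at 26.2 to 59.6 CPM against 106.4 to 269.6. Serpinb1a, a protease inhibitor, was at 366.1 to 1046 CPM against 190.7 to 1164, higher in the members of 3 of the 5 libraries.

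The chemokines Ccl3 and Ccl4, which draw monocytes and lymphocytes, were abundant in the members. Ccl4 was at 15106 CPM in adjacent tissue Ctrl, 9756 in micrometastasis Ctrl, 10499 in micrometastasis Tim3-KD, 15059 in macrometastasis Ctrl and 8968 in macrometastasis Tim3-KD. The non-members of the 5 libraries had between 201.3 and 549.7 CPM of Ccl4. Ccl3 ran from 5050 to 9346 CPM in the members against 101.9 to 330.3 CPM. As a measure of free RNA, Ccl3 was at 6.70 to 30.5 CPM in the B cell cluster of the same 5 libraries. Il6, a cytokine of acute inflammation, had a UMI in 84.6, 88.6, 85.7, 75.0 and 58.6% of members in the same order, against 1.12 to 2.27% of non-members, and in no cell of the B cell cluster of these libraries. Csf1, the growth factor of macrophages, was at 458 to 1956 CPM against 50.3 to 143.1, and Hgf, hepatocyte growth factor, at 93.2 to 264.7 against 3.46 to 9.72. Osm, oncostatin M, a cytokine of the Il6 family, was at 579 to 2018 CPM against 35.4 to 88.5 CPM. These contrasts with other cells describe cells chosen on the same profiles and were not tested.

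**Figure D3:**
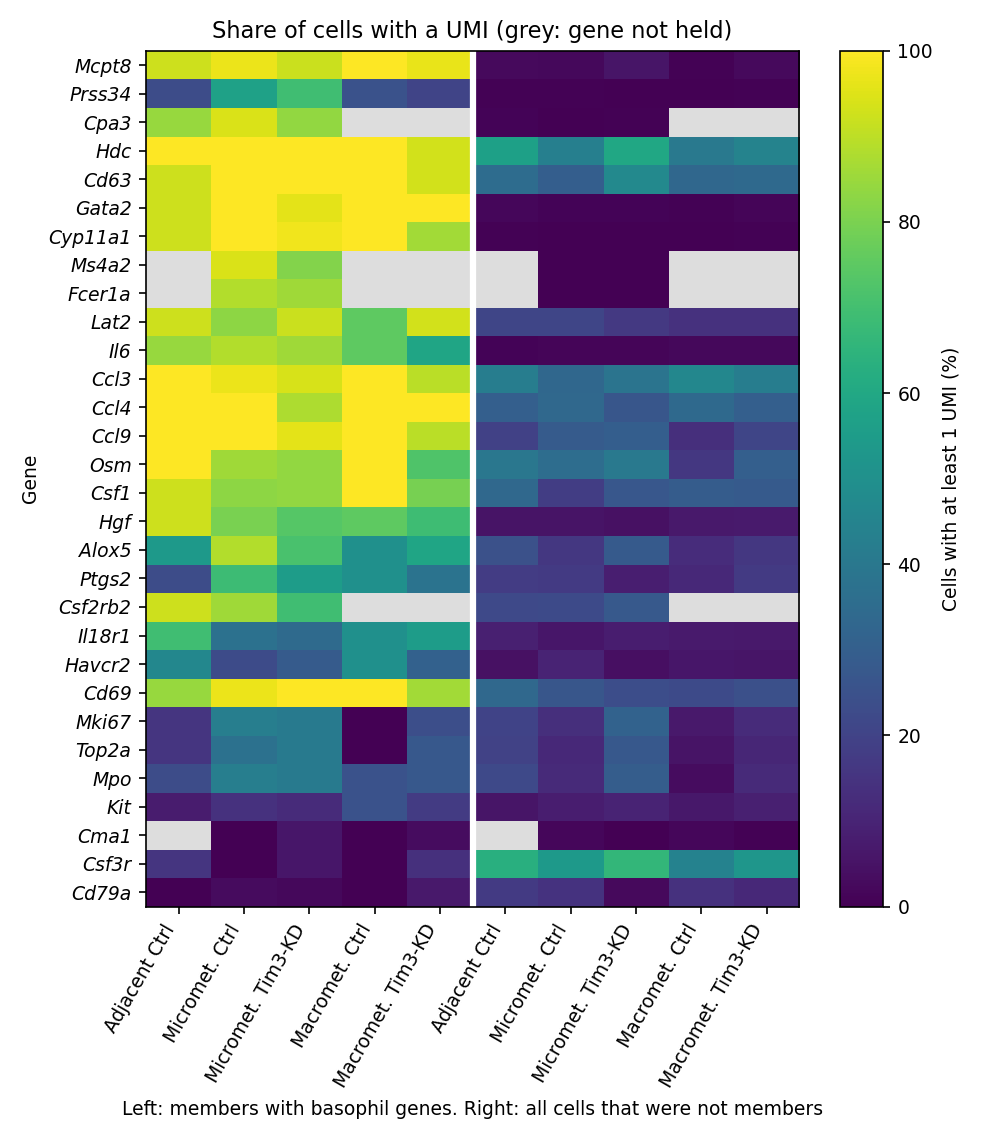
Color gives the percentage of cells with at least 1 UMI of each gene, for the basophil-gene members (left) and all cells that were not members (right) of the 5 libraries that held such members; grey marks a gene that the site did not hold. Mcpt8, Cyp11a1 and Gata2 are bright on the left and near 0 on the right, whereas Kit and Cma1 are dark on both sides.

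Of 24 mast cell genes listed, the matrices held 6 (adjacent tissue), 9 (micrometastasis) and 6 (macrometastasis), and Cpa3, Ms4a2, Gata2 and Hdc among them are shared with basophils. Kit had a UMI in 1 of 13, 5 of 35, 6 of 49, 1 of 4 and 5 of 29 basophil-gene members. With each cell thinned to 1500 UMIs the share for Kit was 2.38% and 1.38% in the micrometastasis libraries, where the non-members had 2.27% and 2.26%. On the CPM scale Kit was at 7.32, 36.5, 22.6, 31.1 and 52.4 in the members of the 5 libraries against 8.64, 15.5, 11.3, 12.4 and 15.7 in the non-members, from 1 to 6 cells each. Cma1, a mast cell chymase, was seen in 0 of 35, 3 of 49, 0 of 4 and 1 of 29 cells of the libraries that held it. Hs3st1, a heparan sulfate sulfotransferase of the same list, was seen in 7 of 13, 17 of 35, 18 of 49, 2 of 4 and 10 of 29 members, at 81.5 to 248.4 CPM against 0.793 to 7.0 in the non-members and 56.1 to 82.4 in the B cell cluster. Mcpt4, Tpsb2, Il4 and Il13 were not analysed here, so mast cells were not told apart from basophils by their main proteases. Genes of eosinophils were at 0 in 3 of the 5 libraries and reached 62.1 CPM summed over the 2 genes held in the others. These 2 of 11 listed genes were Ccr3 and Ear2. Prg2, Epx and Prg3 were not analysed here, so the presence of eosinophils was not judged.

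Receptors in the members spanned cytokines and IgE signaling. Csf2rb2, a beta chain of the Il3 receptor, had a UMI in 12 of 13, 30 of 35 and 34 of 49 cells of the adjacent and micrometastasis libraries with such members. Il18r1, a chain of the Il18 receptor, was seen in 9 of 13, 13 of 35, 17 of 49, 2 of 4 and 16 of 29 cells. Lat2, an adaptor of IgE receptor signaling, was at 186.3 to 410.0 CPM in the members and 20.0 to 33.2 in the non-members. Havcr2, which encodes Tim3, was seen in 6 of 13, 8 of 35, 14 of 49, 2 of 4 and 9 of 29 members at 32.0 to 62.1 CPM, against 3.93 to 15.5 CPM in the non-members. Since only tumor cells were knocked down, Havcr2 in these cells does not check the labels.

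The basophil-gene members differed among themselves in cell cycle genes. Of the 130, 48 had at least 5 UMIs over 10 cell cycle genes such as Mki67 and Top2a, 61 had none, and 3 lay between 3 and 7 UMIs. Cells past the cut numbered 2 of 13 in adjacent tissue Ctrl, 14 of 35 in micrometastasis Ctrl, 24 of 49 in micrometastasis Tim3-KD, 0 of 4 in macrometastasis Ctrl and 8 of 29 in macrometastasis Tim3-KD. By the same cut, 21.3, 12.7, 32.4, 5.43 and 10.9% of the non-members of these libraries passed, and the members lay above them in both micrometastasis libraries and in macrometastasis Tim3-KD. The members past the cut held more RNA, with medians of 21390 UMIs in micrometastasis Ctrl, 14424 in micrometastasis Tim3-KD and 28794 in macrometastasis Tim3-KD, against 6013, 4757 and 5034 UMIs in the other basophil-gene members. A count of UMIs rises with depth, so these numbers are not a comparison of libraries.

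On the CPM scale the cells with and without cell cycle genes had different levels of secreted products. In micrometastasis Ctrl, Ccl3 was at 2480 CPM in the cells with cell cycle genes and 16013 CPM in those without, a ratio of 0.155 (0.142 to 0.168). The ratio for Ccl3 was 0.175 in micrometastasis Tim3-KD and 0.0492 in macrometastasis Tim3-KD, so the cells without cell cycle genes were higher in all 3 libraries. Osm, Csf1, Ptgs2 (the inducible prostaglandin synthase) and Furin, a protein convertase, had ratios below 1 in each of these libraries as well. Osm had ratios of 0.0763, 0.170 and 0.0984.

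The granule genes of the promyelocyte went the other way. Mpo, whose scaled value the rule limited, was at 1507 CPM against 137 in micrometastasis Ctrl, 1134 against 292 in micrometastasis Tim3-KD and 1260 against 30.1 in macrometastasis Tim3-KD. Ctsg, cathepsin G, had ratios of 4.88, 3.25 and 4.12, Ms4a3, a gene of granulocyte-monocyte progenitors, 8.37, 31.8 and 9.68, and Myb, a factor of immature cells, 5.07, 4.92 and 3.77. In the B cell cluster, a measure of free RNA, Mpo was at 12.8, 12.2 and 11.2 CPM in these libraries. Mcpt8 was in 14 of 14, 23 of 24 and 8 of 8 of the cells with cell cycle genes. Prss34 had a UMI in 12 of 14 against 8 of 21 cells in micrometastasis Ctrl, 23 of 24 against 11 of 25 in micrometastasis Tim3-KD, and 3 of 8 against 3 of 21 in macrometastasis Tim3-KD, at unequal depth. A doublet score over 0.15 was given to 12 of the 48 cells with cell cycle genes and to 48 of the 82 without, in all 60 of 130, against 2006 of all 23008 cells. Of the 48, 39 lay in the Mcpt8-led cluster and 8 in the cluster with Cd34 among its leading genes.

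**Figure D4:**
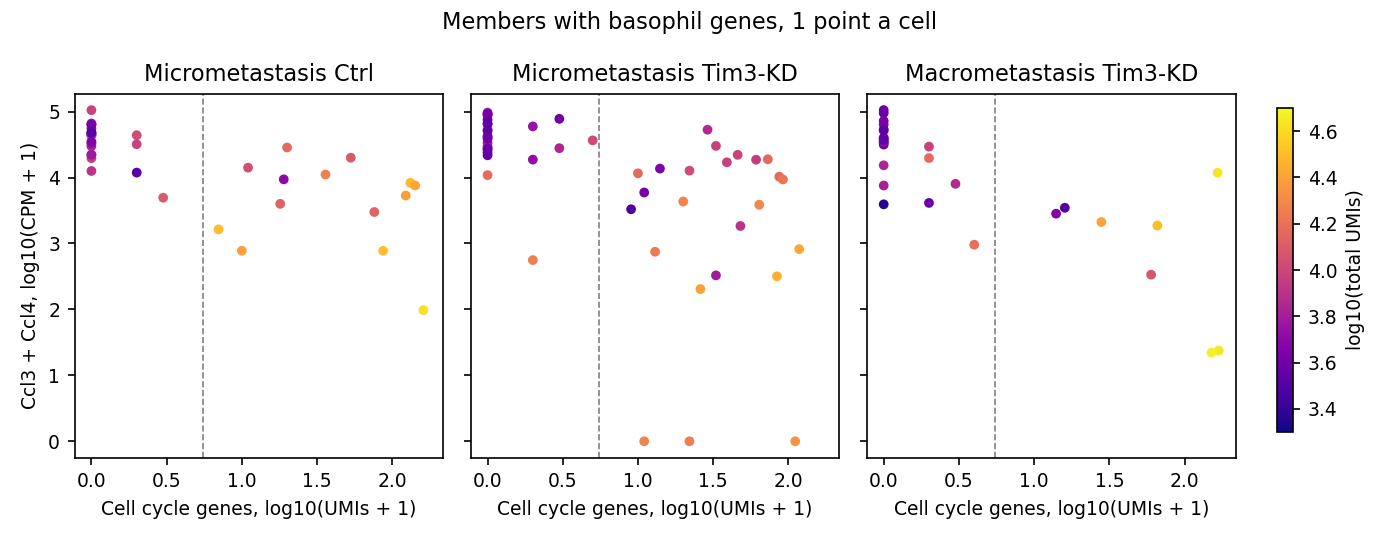
Each point is a basophil-gene member of 1 of 3 libraries, with the summed UMIs of 10 cell cycle genes as log10(UMIs + 1) on the horizontal axis, Ccl3 plus Ccl4 as log10(CPM + 1) on the vertical axis, and color for log10 of its total UMIs; the dashed line is the cut at 5 UMIs. Cells right of the line are mostly larger and lower in Ccl3 plus Ccl4, with medians of 6461, 5133 and 1994 CPM against 43697, 41017 and 34926 CPM to the left.

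In micrometastasis, the members of Tim3-KD and Ctrl tumors were compared gene by gene. Among all members, 54 with Tim3-KD and 40 with Ctrl, 55 of 985 genes with at least 20 UMIs were past 2-fold higher with Tim3-KD (5.58%) and 94 past 2-fold lower (9.54%), with a median log2 ratio of -0.08. All 14 basophil genes held passed the UMI minimum, none was past 2-fold either way, and their median log2 ratio was 0.07, but 7 of them had over 5% of their values at the cap and 6 of them, the 4 selection genes with Prss34 and Cyp11a1, were used to choose or set the members, so their likeness is not read as a result. Restricted to the basophil-gene members, 49 against 35 cells, 43 of 848 genes were higher (5.07%) and 88 lower (10.4%), and again 0 of the 14 basophil genes. There Hdc had a ratio of 0.830 (0.754 to 0.915), Ccl3 1.04 (0.986 to 1.09), Ccl4 1.08 (1.03 to 1.12) and Osm 0.930 (0.798 to 1.08). In the non-members these ratios were 0.872, 0.576, 0.402 and 0.643 in the same order. Prss34 was seen in 20 of 35 cells with Ctrl and 34 of 49 with Tim3-KD, or 51.9% and 65.1% after thinning to 1500 UMIs.

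Il1b was lower with Tim3-KD in members and non-members alike. Of 11 cytokine genes with enough UMIs in the basophil-gene members, 0 were past 2-fold higher and 2, Il1b and Tgfb1, past 2-fold lower, beside 5.07% and 10.4% of all genes, so the count is near the background. The median log2 ratio of the 11 was -0.55 against -0.06 over all genes. Il1b, an inflammasome cytokine, was at 1273 CPM in Ctrl, with 24 of 35 cells having a UMI, and at 434 CPM in Tim3-KD with 20 of 49 cells, a ratio of 0.341 (0.289 to 0.40). In the non-members of the same libraries Il1b was at 1614 and 559 CPM, a ratio of 0.346, and the part of free RNA in the members' value was not tested. Ccl6 had a ratio of 0.546 (0.516 to 0.578) and 0.653 in the non-members, and Csf1 0.594 (0.499 to 0.706) and 0.807 in the non-members. Without cells of doublet score over 0.15, the log2 ratio of Csf1 over all members turned from lower to 0.25.

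C3ar1 and Dnajb1 were higher with Tim3-KD in the members. Of 12 receptor genes with enough UMIs, 3 were past 2-fold higher and 0 lower, C3ar1 and the neutrophil genes Csf3r and Il1r2, beside 5.07% of all genes higher and 10.4% lower. Of 17 immediate early and stress genes, a list without Dnajb1, Gadd45b was higher and Atf3 lower. C3ar1, the receptor of the complement fragment C3a, had 22.8 CPM with Ctrl tumors (8 of 35 cells) against 71.9 CPM with Tim3-KD (26 of 49 cells), for a ratio of 3.15 (1.53 to 7.14), while its ratio in the non-members was 0.467. Dnajb1, a heat shock co-chaperone, was at 157.5 CPM with 20 of 35 cells and 637 CPM with 32 of 49 cells, a ratio of 4.05 (3.11 to 5.33) against 1.09 in the non-members. Of 8 neutrophil genes with enough UMIs, 6 were past 2-fold higher and 0 lower, beside the same shares of all genes, but few cells carried those examined. Stfa2 was seen in 4 of 49 cells and Stfa2l1 in 6 of 49, and the 12 neutrophil genes that all sites held summed to 523 CPM with Ctrl tumors against 1038 CPM with Tim3-KD, where 1 cell reached 15426 CPM. Acod1 alone gave 470 and 514 CPM of these sums, in 26 of 35 and 34 of 49 cells, so the other genes of the list differed by more than the sums. Their part in the other differences was not tested. At the low end, S100a4, a calcium-binding protein, was seen in 6 of 35 cells with Ctrl and 2 of 49 with Tim3-KD. Its ratio was 0.0327 (0.00387 to 0.124), against 0.587 in the non-members. Features that pool the reads of near-identical histone H2A genes were also at the low end. In the non-members the 3 such features were at 0 to 3.6 CPM with Tim3-KD against 61.3 to 152.1 CPM with Ctrl, so they differed across the whole library.

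**Figure D5:**
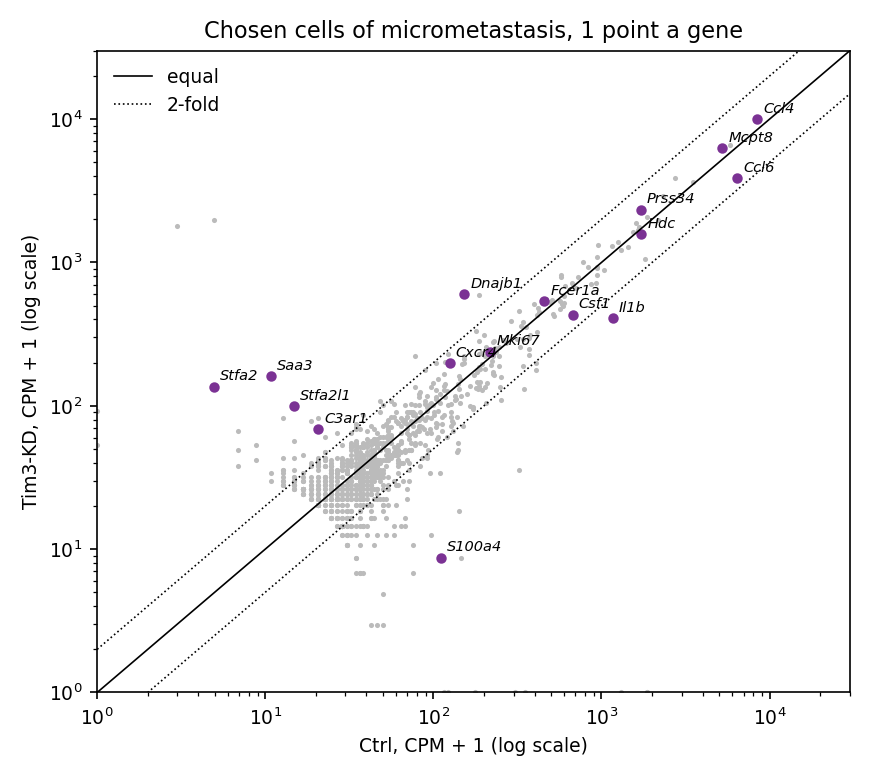
Each point is 1 of 985 genes, with its level in the 40 members of micrometastasis Ctrl (horizontal) and the 54 of Tim3-KD (vertical) as CPM + 1 on log scales; dotted lines mark 2-fold. Mcpt8, Prss34, Hdc and Ccl4 lie near the line of equal levels, while Il1b and S100a4 lie below and Dnajb1, C3ar1, Saa3 and Stfa2 above the dotted lines. Saa3 and Stfa2 rest on few cells. In the Tim3-KD basophil-gene members Saa3 had 81 UMIs in 3 of 25 cells without cell cycle genes and 2 UMIs in 2 of 24 with them.

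Between sites of the Ctrl tumor, Ptgs2 and Alox5 were higher in the basophil-gene members of micrometastasis than in those of adjacent tissue. In all members 108 of 547 genes were past 2-fold higher in micrometastasis (19.7%) and 72 past 2-fold lower (13.2%), with 40 against 16 cells. In the basophil-gene members 95 of 428 genes were higher (22.2%) and 47 lower (11%). Prss34 had a UMI in 3 of 13 basophil-gene members of adjacent tissue and 20 of 35 of micrometastasis, or 13.9% and 51.9% after thinning. This is a description, since Prss34 helped to set these members and the selection genes held differed between the sites. Ptgs2 was at 65.9 CPM in 3 of 13 cells and 392 CPM in 24 of 35 cells, a ratio of 5.96 (3.06 to 13.2). Alox5, the enzyme that starts leukotriene synthesis, had a ratio of 2.20 (1.30 to 3.98). They were the 2 of 5 eicosanoid enzymes held by both sites that had enough UMIs, and with 22.2% of all genes past 2-fold higher nothing is read of the list. Top2a, a topoisomerase of dividing cells, was at 80.5 CPM in 2 of 13 cells and 370 CPM in 13 of 35 cells. Lower in micrometastasis were Lmna, a nuclear lamin, with a ratio of 0.405 (0.322 to 0.510) and Gzmb, granzyme B, with 0.231 (0.170 to 0.313). With 13 cells on 1 side, these values rest on few cells.

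In macrometastasis Ctrl the 4 basophil-gene members can be given cell by cell. Their total counts were 3643, 6373, 8953 and 13238 UMIs, with 4, 8, 1 and 16 Mcpt8 UMIs, 1, 5, 6 and 8 Gata2 UMIs, 216, 180, 54 and 35 Ccl4 UMIs and 0 endothelial UMIs in each. The largest of them had 7 Mpo UMIs and the others 0. So small a number allows no gene to be compared with the 29 cells of Tim3-KD on more than 4 cells. Summed over the 4 cells, T and NK cell genes were also present, with Ccl5 at 2670 CPM, Trbc2 at 745.2 and Trac at 186.3. The 29 Tim3-KD members had 58.2, 34.9 and 5.82 CPM, and the Ctrl non-members 674.8, 109.6 and 29.05. Cd3d, at 62.1 CPM, was below the 85.6 CPM of the Ctrl non-members. Whether doublets or free RNA gave these levels, and their part in the other contrasts, was not tested. Among all members of macrometastasis, 253 of 1588 genes were past 2-fold higher with Tim3-KD (15.9%) and 781 past 2-fold lower (49.2%), with a median log2 ratio of -0.95. The makeup of the libraries was unequal, with 4 basophil-gene and 59 endothelial-gene members in Ctrl against 29 and 21 in Tim3-KD. Among the basophil-gene members alone, 87 of 306 genes were past 2-fold higher (28.4%) and 65 lower (21.2%). Among the endothelial-gene members 55 of 902 genes were higher (6.1%) and 86 lower (9.53%). In the basophil-gene members Osm had 2018 CPM with Ctrl tumors against 666 CPM with Tim3-KD, for a ratio of 0.330 (0.25 to 0.442), and Csf1 had a ratio of 0.262 (0.195 to 0.355), both seen in 4 of 4 cells of Ctrl. None of those 4 cells had cell cycle genes, and in the 21 Tim3-KD cells also without them Osm was at 1493 CPM and Csf1 at 1184 CPM, closer to the Ctrl values of 2018 and 1956 CPM. Macrometastasis Ctrl set against micrometastasis Ctrl had 515 of 936 genes higher (55%) and 189 lower (20.2%) over all members, and 70 of 303 higher (23.1%) and 83 lower (27.4%) over the basophil-gene members.

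Set against micrometastasis Tim3-KD, the 29 basophil-gene members of macrometastasis Tim3-KD had a Prss34 UMI in 6 of 29 against 34 of 49 cells, or 12.1% and 65.1% after thinning. The limit is the same here, with cells chosen on Mcpt8 and Gata2 alone in macrometastasis and on all 4 genes in micrometastasis. In this pair 58 of 492 genes were past 2-fold higher in macrometastasis (11.8%) and 61 lower (12.4%). Over all members of the pair, 331 of 916 genes were higher (36.1%) and 86 lower (9.39%). Isg15, an interferon-stimulated gene, was seen in 2 of 29 cells of macrometastasis and 12 of 49 of micrometastasis, a ratio of 0.173 (0.0532 to 0.436). Hdc was at 1722 and 1654 CPM and Ccl3 at 5050 and 6993 CPM in the 2 libraries, so these products stayed within 2-fold.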

How the data were processed

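The authors trimmed reads with Trim Galore 0.4.3, mapped them with STAR 2.7.7a to GRCm38, kept exonic and intronic reads, filtered cells, and deposited scaled scores per gene, capped at 10, in 1 matrix per site (Ctrl and Tim3-KD together). From these deposited scores, UMIs were recovered by undoing the scaling. In the worst gene of each site, 98.1 to 99.9% of detected values came out whole within 0.05. Values at the cap are lower bounds. Capped values were 0.144 to 0.160% of those detected. In counts of 4485 genes simulated for adjacent tissue, 99.5% of 200 changed genes returned their ratio. The simulated scores were made with the same scaling model that the recovery assumes, so this does not check the model. CPM is summed UMIs over total UMIs. Median depth was 6300 to 10248 UMIs over 542 to 5502 cells, and pairs of libraries shared 0 to 11 barcodes. Clusters came from scanpy 1.11.5 (30 components, 15 neighbours, Leiden resolution 1). The authors' methods state that Scrublet doublets at a score of 0.15 were removed. Scores were computed again per library on the deposited cells, with the same value used only in an alternative, and no cell was removed.

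Shares have exact or Newcombe intervals, and ratios exact conditional intervals. Genes with at least 20 UMIs over both libraries were counted past 2-fold with 0.5 added to each sum. Samples were grouped by the labels. Named genes were those of listed pathways, the 10 leading genes of each site, and the 5 highest and 5 lowest ratios with at least 50 UMIs. Members and lists were chosen with earlier results of these data known. Alternatives were a UMI rule (a UMI of at least 2 selection genes, under 10 Elane and Mpo UMIs), other cuts, denominators, thinning and a mean over cells. The UMI rule asked for both selection genes held in macrometastasis and for any 2 of 4 in micrometastasis, so it too differed between sites.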

Additional observations from a re-analysis of the deposited data

Results flagged for a closer look

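The difference in the share of members between tumor lines had a different sign between sites, without a test of that difference. Tim3-KD minus Ctrl for all members was -0.334 percentage points (adjacent tissue), 0.267 points (micrometastasis) and -0.155 points (macrometastasis), and the intervals of all 3 held 0 (-0.993 to 0.780, -0.106 to 0.646 and -0.613 to 0.293). For the basophil-gene members it was -0.721 (-1.23 to 0.0437), 0.267 (-0.0853 to 0.628) and 0.446 points (0.241 to 0.680). In adjacent tissue the Mcpt8-led cluster held 0 of 542 cells with Tim3-KD and 17 of 1803 with Ctrl. That difference was -0.943 points (-1.505 to -0.155), an interval without 0.

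Among the basophil-gene members, the log2 ratio of Ccl4 with Tim3-KD over Ctrl was 0.11 in micrometastasis and -0.75 in macrometastasis, and that of Mpo was -0.30 and 1.76. The macrometastasis values set 29 cells against 4, and none of the 4 had cell cycle genes. Against the 21 Tim3-KD cells also without them both directions turned, with Ccl4 at 19313 CPM (Tim3-KD) and 15059 CPM (Ctrl) and Mpo at 30.1 and 217.3 CPM. The rule limited Mpo, and the differences between sites were not tested.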

How the results depend on the processing

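No fit with the replicate number as a block was made, since each group is 1 library, and a fit of the tumor line over all 6 libraries paired by site was not run. There was no replicate to leave out, and 4 Ctrl cells limit every macrometastasis value of the basophil-gene members. The alternatives that keep only basophil-gene members, or members with a Mcpt8 UMI, were chosen after seeing the data.

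The share of all members in macrometastasis Ctrl minus micrometastasis Ctrl turned from 0.662 points to -0.505 under the UMI rule, -0.544 in the Mcpt8-led cluster, -0.604 for basophil-gene members and -0.584 for members with a Mcpt8 UMI. Tim3-KD minus Ctrl in macrometastasis moved from -0.155 to 0.425, 0.496, 0.446 and 0.609 points under the same 4 choices. Without neutrophil clusters in the denominator, Tim3-KD minus Ctrl was -1.11 points in adjacent tissue and 1.30 in micrometastasis for all members. For basophil-gene members it was -1.46 (adjacent tissue), 1.22 (micrometastasis) and 0.774 points (macrometastasis), and macrometastasis Ctrl minus micrometastasis Ctrl was -1.01. Without doublet scores over 0.15 the last 2 of these were 0.202 and -0.250.

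Genes past 2-fold with no UMI minimum numbered 804 for Tim3-KD over Ctrl in micrometastasis (149 with it) and 1616 in macrometastasis (1034). They numbered 870 for micrometastasis Ctrl over adjacent tissue Ctrl (180) and 1187 for macrometastasis Ctrl over micrometastasis Ctrl (704). Under the UMI rule and for basophil-gene members alone the counts were 107 and 152 in macrometastasis, and 121 and 153 for macrometastasis Ctrl over micrometastasis Ctrl.

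In micrometastasis, 5 single-gene log2 ratios over all members reversed. Under the UMI rule these were Il6 (0.22), Mpo (0.30) and Stfa2l1 (-1.05), and without doublet scores over 0.15 Csf1 (0.25) and Ctsg (-0.69). The causes were not tested. Of 256 such gene values over 32 genes, 36 lay in the other direction from the reported value, of which 5 are the reversals given, 52 moved beyond the counting interval, and 199 stayed within it. Shares of basophil-gene members with a UMI were thinned to 1500 UMIs in 45 cases. Of these, 18 moved beyond their interval and 27 stayed within it, so shares given without thinning depend on depth.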
